A study of Mus musculus with 6 samples.

Results

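The DEAD and DEAH box helicases are enzymes that use ATP to unwind or remodel RNA and to take proteins off RNA, named in single-letter amino acid code after a short conserved motif. DEAD box proteins, with Ddx gene names, mostly open short duplexes locally, while DEAH box proteins, with Dhx names, mostly move along a strand from one end. They act at nearly every step of RNA life, from spliceosome remodelling and ribosome assembly to mRNA export, translation, decay and the sensing of viral RNA. The 47 genes described here were taken by name from a table of 55401 gene rows. Of 53 rows whose symbol is Ddx or Dhx followed by a number and at most 1 letter, Ddx46, Dhx8, Dhx15, Dhx16, Ddx3x and Ddx3y were left out, which left 34 Ddx and 13 Dhx genes. The choice uses gene names alone, and all 47 passed the filter on low counts, as did 17573 genes in all.

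The libraries hold RNA labelled with 4-thiouridine (4sU), a uridine analogue that marks RNA made while it is present, from 129/Ola mouse embryonic stem cells grown with serum and leukemia inhibitory factor. The line, ZFP207AID, carries an auxin-inducible degron on ZFP207, a zinc finger protein, and the study concerns how ZFP207 bears on U1 snRNP, the particle that recognises splice sites at the start of introns. The 3 depleted libraries came from cells given indole-3-acetic acid (IAA) for 5 h and have a genotype label naming ZFP207 degradation. The 3 control libraries were taken as degron cells at 0 h, as titled, but carry the genotype label WT. If the controls were untagged cells, line and depletion cannot be told apart, and no library of untagged cells with IAA was analysed here. The protein was not measured, and the labels do not say whether the line is 1 clone or whether replicates were separate cultures, so each p-value covers only the spread among these 6 libraries, which may be technical.

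Total counts ran from 14336811 to 23385133 in depleted and from 17613103 to 25916628 in control libraries. The 8 stem cell markers checked (Pou5f1, Sox2, Nanog, Esrrb, Zfp42, Klf4, Tfcp2l1 and Dppa5a) had 1834 to 25458 counts in every library; their levels are summed here in CPM. CPM are counts scaled to a common library size with TMM factors, which remove differences in total and composition. Of 9 lineage markers, T, Cdx2 and Elf5 were at 0 in every library and Sox17 had a count in 1 library only, and the 9 summed to 12.9 to 24.5 CPM in depleted and 15.5 to 20.2 CPM in control libraries. The 4 fibroblast markers, among which Col1a1 and Col1a2 had at most 38 counts, summed to 57.0 to 89.1 CPM in depleted and 49.3 to 86.2 CPM in control libraries. These summed ranges overlapped between the groups. Within pairs 1, 2 and 3 the stem cell sum was higher in each depleted library, at 4145, 4714 and 4767 CPM in depleted and 3984, 4115 and 4419 CPM in control libraries, and so was the fibroblast sum, at 57.0, 89.1 and 66.3 CPM in depleted and 49.3, 86.2 and 53.2 CPM in control libraries. Most of the fibroblast sum was Vim, at 54.1, 86.2 and 61.9 CPM in depleted and 45.3, 77.2 and 50.7 CPM in control libraries. The other fibroblast markers did not share that rise in every pair. Thy1 was nearly level in pair 1, lower in pair 2 and higher in pair 3. Its levels were 2.50, 2.87 and 4.20 CPM in depleted and 2.51, 8.25 and 2.27 CPM in control libraries. Col1a1 had 11, 0 and 0 counts in depleted and 38, 12 and 0 in control libraries. Klf4 rose with the replicate block described below (edgeR adjusted p = 0.0468, and 0.596 without it), the only called gene of the 8 stem cell, 2 fibroblast and 5 lineage markers tested. The part of these shifts in the helicase results was not tested.

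After 5 h of IAA, 6 of the 47 helicase genes rose and 2 fell in edgeR's quasi-likelihood test when replicate number entered as a block, and 39 were not called. Those that rose were Ddx39b, Dhx9, Ddx27, Ddx49, Ddx17 and Dhx38, by 1.21-fold to 1.37-fold. Those that fell were the interferon-inducible gene Ddx60, which had 1 count over the depleted libraries, against 61 over the controls and passed the filter on low counts only through the controls, and Dhx36, by 1.23-fold. A gene was called at a Benjamini-Hochberg adjusted p under 0.05 over all 17573 genes. The block compares each depleted library with the control of the same number, since same-numbered libraries deviated together. Of all genes tested, this fit called 4.96% higher and 7.9% lower. The helicase shares were 12.8% higher and 4.26% lower, the first above and the second below that background, a difference that was not tested. Without the block the test called 0 of the 47 in either direction, where it called 0.0114% of all genes higher and 0.78% lower, and 4 helicase genes (8.51%, against 10.9% of all genes) had an unadjusted edgeR p under 0.05. DESeq2 without the block called 1 of them, Ddx60, lower, where it called 3.3% of all genes lower and 0.353% higher.

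As a whole the helicase genes did not lie apart from other genes. Their median log2 fold change, depleted over control, was 0.023 without the block, against 0.024 for all genes tested. Of them 26 lay above 0 and 21 below (55.3% above, against 52.3% of all genes). Apart from Ddx60 every value lay between -0.31 and 0.44. All 3 pairs were higher in the depleted library for 15 members (31.9%, against 24.2% of all genes) and lower for 12 (25.5%, against 24.1%). The depleted libraries all lay above the controls for 4 members, Ddx39b, Dhx9, Ddx27 and Ddx18, and all below them for 4, Ddx60, Ddx31, Ddx52 and Dhx29 (8.51% each, against 6.94% above and 11.8% below among all genes).

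**Figure D1:**
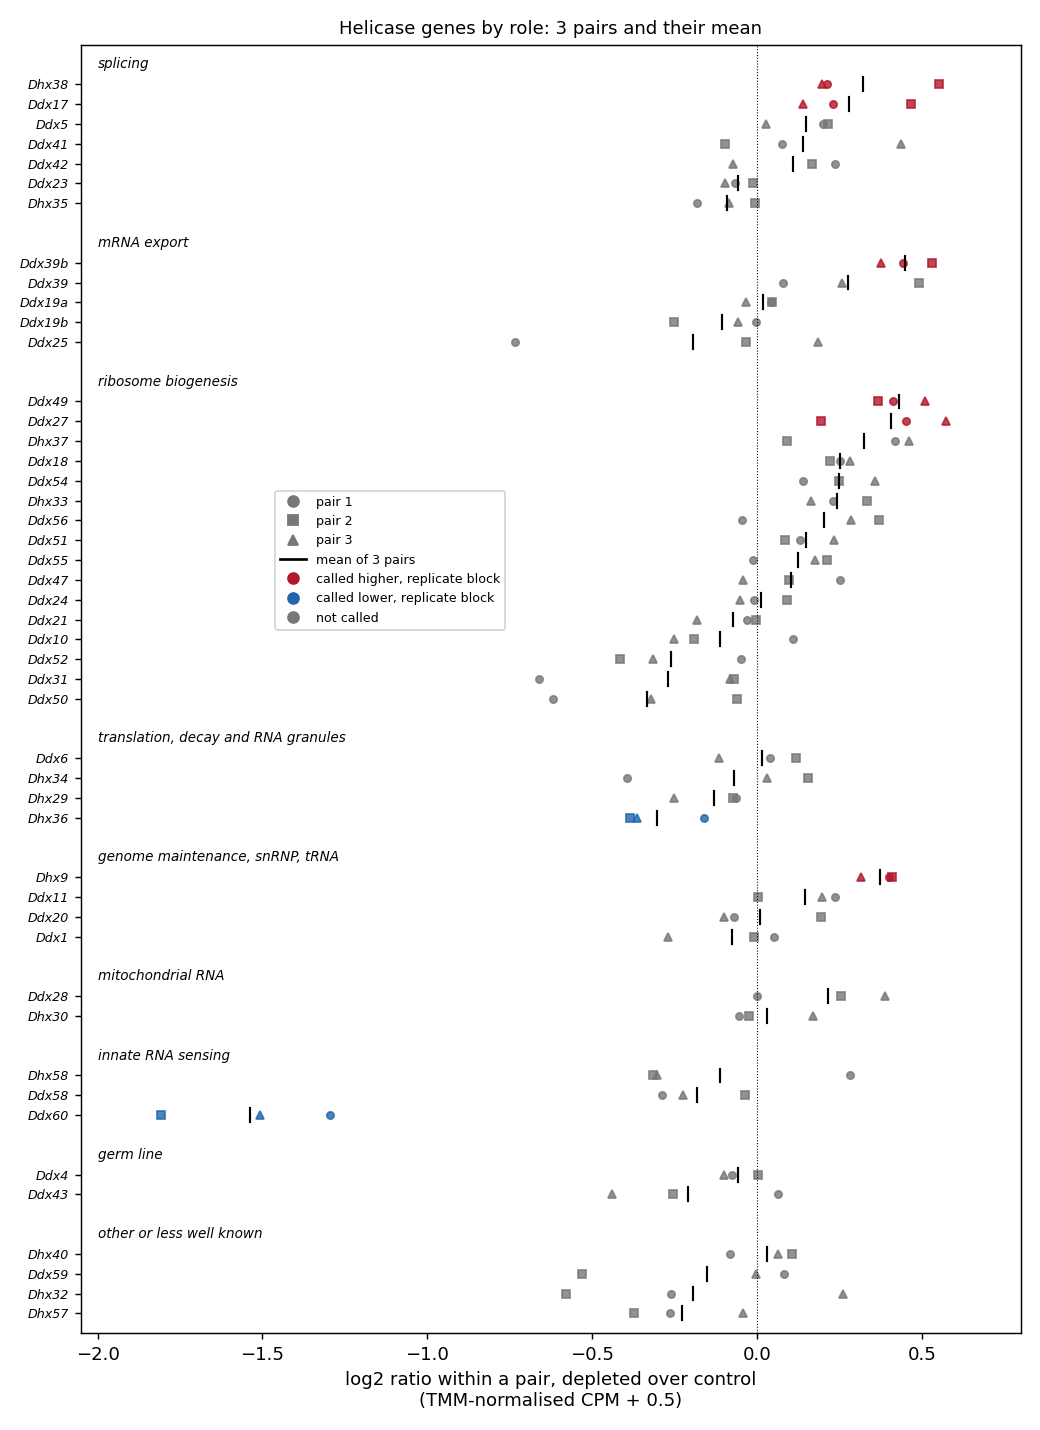
Log2 ratio of TMM-normalised CPM (plus 0.5) within each of the 3 replicate pairs, depleted over control, for the 47 helicase genes grouped by role. Symbols mark the pairs, black ticks their mean, and red and blue the 6 genes called higher and the 2 called lower with the replicate block; Ddx60 stands apart on the left and most other genes lie within 0.5 of 0.

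The helicase genes together took 0.817, 0.834 and 0.801% of all counts in depleted replicates 1 to 3, against 0.778, 0.781 and 0.770% in control replicates 1 to 3, so that every depleted library lay above every control. The 3 members with the most counts, Ddx5, Dhx9 and Ddx17, held 38.3, 41.2 and 37.0% of the helicase counts in depleted libraries and 35.1, 36.9 and 35.5% in controls. Without these 3, which were set apart after their values were seen, the share was 0.504, 0.490 and 0.505% in depleted and 0.505, 0.492 and 0.497% in control libraries, and the groups overlapped. For some members, picked after their values were seen, replicate 2 stood out in both groups. How many members stood out in each replicate number was not counted. Ddx10, Ddx47 and Dhx36, for example, had their highest level of each group in replicate 2, and Ddx39, Ddx39b, Ddx49 and Dhx38 their lowest.

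Among the 7 members that act in or around the spliceosome, 2 rose with the block and 0 fell. The share that rose was 28.6%, against 4.96% of all genes, of which 7.9% fell, and the difference was not tested. Dhx38 (chromosome 8, 109547999 to 109565861, mm10 coordinates here and below) encodes the DEAH helicase that remodels the spliceosome for its second catalytic step. It had 149, 125 and 159 CPM in depleted replicates 1 to 3, against 129, 85.0 and 138 CPM in control replicates 1 to 3. Each depleted library lay above its own control, but the control of replicate 2 was far below the other controls and the groups overlapped. Dhx38 had a log2 fold change of 0.32 (SE 0.09, edgeR adjusted p = 0.0360) with the replicate block and 0.30 (SE 0.20, edgeR adjusted p = 0.659) without it. Ddx17 (chromosome 15, 79527696 to 79546764, overlapped by Kdelr3) encodes a regulator of alternative splicing and a cofactor of transcription and microRNA processing. Its levels were 794, 1089 and 739 CPM in depleted replicates 1 to 3, against 677, 788 and 671 CPM in control replicates 1 to 3. Replicate 2 was highest in both groups and showed the widest gap. Ddx17 had a log2 fold change of 0.28 (SE 0.07, edgeR adjusted p = 0.0275) with the replicate block and 0.30 (SE 0.17, edgeR adjusted p = 0.603) without it. Neither call held each time a pair was left out: the adjusted p of Dhx38 with the block was 0.0534, 0.177 and 0.0746 without pair 1, 2 and 3, and that of Ddx17 was 0.0467, 0.163 and 0.0473 without pair 1, 2 and 3.

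The close paralog of Ddx17, Ddx5, which carries Mir3064 within its interval, had more counts than any other member, before any allowance for gene length (chromosome 11, 106780355 to 106789185). It had 1497, 1515 and 1265 CPM in depleted replicates 1 to 3, against 1303, 1303 and 1240.3 CPM in control replicates 1 to 3, and it was not called (log2 fold change 0.15, edgeR adjusted p = 0.166 with the block). The other members of this role, Ddx23 of the U5 snRNP, Ddx42 of the U2 snRNP branch, Ddx41 and Dhx35, lay between -0.09 and 0.16. Ddx41 had the largest of these changes, with 56.2, 35.6 and 57.8 CPM in depleted replicates 1 to 3, against 53.3, 38.1 and 42.6 CPM in control replicates 1 to 3, and its pairs did not share a direction.

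Of the 5 members tied to mRNA export, Ddx39b rose with the block and 0 fell. The share that rose was 20%, against 4.96% of all genes, of which 7.9% fell, and the difference was not tested. The Ddx39b protein works in early spliceosome assembly and, within the TREX complex, in the export of mRNA. Ddx39b (chromosome 17, 35241746 to 35253707) had 398, 308 and 384 CPM in depleted replicates 1 to 3, against 292, 213 and 296 CPM in control replicates 1 to 3. All depleted libraries lay above all controls, with replicate 2 lowest in both groups. Ddx39b had a log2 fold change of 0.45 (SE 0.07, edgeR adjusted p = 0.00153) with the replicate block and 0.44 (SE 0.18, edgeR adjusted p = 0.388) without it. The call with the block held without any 1 pair (adjusted p 0.00495, 0.00777 and 0.0129 without pair 1, 2 and 3). The snoRNA gene Gm25128 and the microRNA genes Mir6975 and Mir8094 lie in the same interval and had at most 49, 17 and 14 counts in any library. The near copy Ddx39, also an export factor, had 259, 207 and 273 CPM in depleted replicates 1 to 3, against 245, 147 and 228 CPM in control replicates 1 to 3. It was higher in all 3 pairs, at a log2 fold change of 0.28 with the block, and missed the threshold there (edgeR adjusted p = 0.0540). Reads shared by near-identical copies can be divided between them in ways the table does not show, which applies to Ddx39 and Ddx39b and to Ddx19a and Ddx19b.

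Ddx19a and Ddx19b, which lie 5.40 kb apart on chromosome 8 and encode helicases that release export proteins from mRNA at the nuclear pore, were not called. Ddx19a had 94.9, 77.9 and 96.3 CPM in depleted replicates 1 to 3, against 92.0, 75.4 and 98.6 CPM in control replicates 1 to 3, and Ddx19b had 133, 133 and 113 CPM in depleted replicates 1 to 3, against 134, 158 and 118 CPM in control replicates 1 to 3. Both sets of libraries overlapped. Ddx25, an export and translation factor of spermatids, had only 35 to 77 counts per library and a log2 fold change of -0.21.

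The largest role group was ribosome biogenesis, with 16 members, of which Ddx27 and Ddx49 rose and 0 fell. The share that rose was 12.5%, against 12.8% of all 47 helicase genes and 4.96% of all genes, of which 7.9% fell. The median log2 fold change of the group was 0.14 and 11 of 16 lay above 0 (68.8%), where all genes had a median of 0.024 and 52.3% lay above 0. The 7 splicing members had a median of 0.15, with 71.4% above 0. Ddx27, which acts in the processing of the large subunit rRNA (chromosome 2, 167015313 to 167034945), had 159, 133 and 163 CPM in depleted replicates 1 to 3, against 116, 116 and 109.7 CPM in control replicates 1 to 3. The controls lay close together and every depleted library was above them. Ddx27 had a log2 fold change of 0.41 (SE 0.09, edgeR adjusted p = 0.0111) with the replicate block and 0.41 (SE 0.14, edgeR adjusted p = 0.297) without it, and the adjusted p with the block was 0.0491, 0.00514 and 0.137 without pair 1, 2 and 3. Ddx49, a nucleolar helicase of rRNA processing (chromosome 8, 70292866 to 70302471, overlapped by Homer3), had 67.2, 46.7 and 66.3 CPM in depleted replicates 1 to 3, against 50.4, 36.1 and 46.5 CPM in control replicates 1 to 3. Replicate 2 was lowest in both groups, so that the groups overlapped although each pair moved the same way. Ddx49 had a log2 fold change of 0.43 (SE 0.11, edgeR adjusted p = 0.0182) with the replicate block and 0.44 (SE 0.20, edgeR adjusted p = 0.491) without it, and the adjusted p with the block was 0.0600, 0.0348 and 0.141 without pair 1, 2 and 3. The overlapping genes of 2 called members were themselves not called with the block, at log2 fold changes of 0.21 for Homer3 and 0.087 for Kdelr3.

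The other 14 ribosome biogenesis genes lay between -0.30 and 0.34, 9 of them above 0. Dhx37, a helicase of the small subunit processome, had the largest change of these, with 85.1, 62.8 and 94.4 CPM in depleted replicates 1 to 3, against 63.5, 58.9 and 68.4 CPM in control replicates 1 to 3. It was higher in all 3 pairs and its edgeR adjusted p with the block was 0.0543. Ddx18, a nucleolar helicase, had 147, 138 and 138 CPM in depleted replicates 1 to 3, against 123, 118 and 114 CPM in control replicates 1 to 3. Its groups did not overlap, and its edgeR adjusted p with the block was 0.0536. Ddx54, Ddx51 and Dhx33 were also higher in all 3 pairs, at log2 fold changes of 0.25, 0.15 and 0.25.

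Ddx31, Ddx52, Ddx50 and Ddx21 were lower in all 3 pairs. Ddx31 had 31.3, 43.6 and 44.3 CPM in depleted replicates 1 to 3, against 49.8, 45.8 and 46.9 CPM in control replicates 1 to 3, and Ddx52 had 74.9, 70.3 and 66.0 CPM in depleted replicates 1 to 3, against 77.5, 94.0 and 82.2 CPM in control replicates 1 to 3. Neither gene's groups overlapped, and neither was called (edgeR adjusted p with the block 0.222 and 0.110). Ddx21, the nucleolar helicase that links rRNA synthesis and processing, and its paralog Ddx50 lie 13.5 kb apart on chromosome 10. Ddx50 had 61.7, 106 and 75.1 CPM in depleted replicates 1 to 3, against 95.0, 110.2 and 93.9 CPM in control replicates 1 to 3, with a log2 fold change of -0.30. With the block its log2 fold change was -0.33 and it missed the threshold (edgeR adjusted p = 0.0617). Ddx21 had 687, 684 and 535 CPM in depleted replicates 1 to 3, against 702, 685 and 608 CPM in control replicates 1 to 3, with a log2 fold change of -0.065. The log2 ratio of Ddx50 was below that of Ddx21 in each pair, by differences of -0.59, -0.057 and -0.14. The remaining Ddx10, Ddx24, Ddx47, Ddx55 and Ddx56 had pairs of both signs.

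Of the 4 members that work in translation and decay, Dhx36 fell with the block and 0 rose. The share that fell was 25%, against 7.9% of all genes, of which 4.96% rose, and the difference was not tested. Dhx36 encodes a DEAH helicase that resolves G-quadruplexes, the stacked structures of guanine-rich RNA and DNA. Dhx36 (chromosome 3, 62468015 to 62507034) had 142, 176 and 106 CPM in depleted replicates 1 to 3, against 158, 229 and 136 CPM in control replicates 1 to 3. Replicate 2 was highest in both groups, and the groups overlapped although all 3 pairs were lower after IAA. Dhx36 had a log2 fold change of -0.30 (SE 0.08, edgeR adjusted p = 0.0278) with the replicate block and -0.31 (SE 0.24, edgeR adjusted p = 0.715) without it, and the adjusted p with the block was 0.0322, 0.112 and 0.143 without pair 1, 2 and 3. Ddx6, which represses translation and feeds mRNA to decapping in processing bodies, had 497, 648 and 419 CPM in depleted replicates 1 to 3, against 483, 597 and 453 CPM in control replicates 1 to 3, with pairs of both signs. Dhx29, which helps the small ribosomal subunit scan structured leaders, had 39.4, 39.0 and 36.4 CPM in depleted replicates 1 to 3, against 41.1, 41.0 and 43.4 CPM in control replicates 1 to 3. Its groups did not overlap, but at a log2 fold change of -0.13 it was not called (edgeR adjusted p = 0.536 with the block). Dhx34, a factor of nonsense-mediated decay, had a log2 fold change of -0.11.

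Of the 4 members in the group of genome maintenance, snRNP assembly and tRNA ligation, Dhx9 rose with the block and 0 fell. The share that rose was 25%, against 4.96% of all genes, of which 7.9% fell, and the difference was not tested. Dhx9 encodes a DEAH-related helicase that unwinds RNA and RNA-DNA hybrids and binds double-stranded RNA from inverted repeats. Dhx9 (chromosome 1, 153455756 to 153487688, with the tRNA gene n-TIaat13 in its interval) had 938, 1066 and 867 CPM in depleted replicates 1 to 3, against 710.4, 803 and 697 CPM in control replicates 1 to 3. Every depleted library lay above every control, and the gaps within the pairs were alike, at log2 ratios of 0.40, 0.41 and 0.31. Dhx9 had a log2 fold change of 0.38 (SE 0.06, edgeR adjusted p = 0.00263) with the replicate block and 0.38 (SE 0.14, edgeR adjusted p = 0.357) without it, and the call with the block held without any 1 pair (adjusted p 0.0110, 0.0140 and 0.0229 without pair 1, 2 and 3). Ddx20, a member of the SMN complex that loads Sm proteins on snRNAs, had 175, 234 and 166 CPM in depleted replicates 1 to 3, against 183, 204 and 178 CPM in control replicates 1 to 3. Ddx11, a DNA helicase of sister chromatid cohesion, had 124, 128 and 139.9 CPM in depleted replicates 1 to 3, against 105, 128 and 122 CPM in control replicates 1 to 3. Ddx1, part of the tRNA ligase complex, had a log2 fold change of -0.07. None of these 3 was called and their libraries overlapped.

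**Figure D2:**
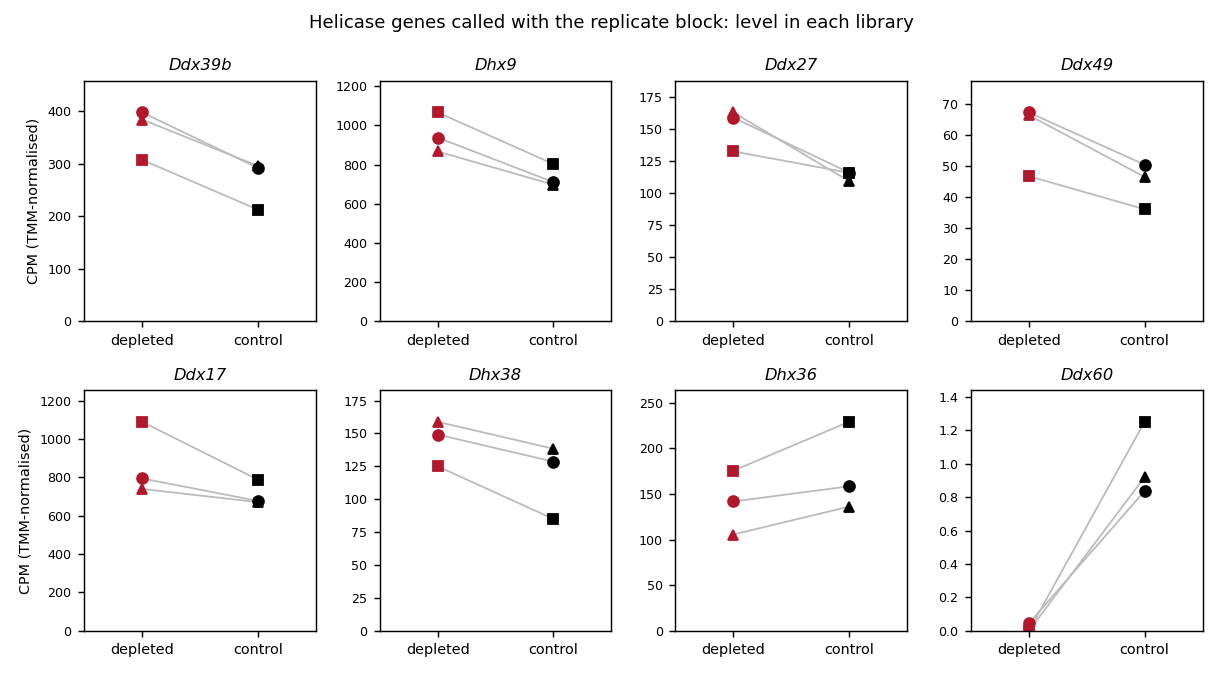
TMM-normalised CPM of the 8 helicase genes called with the replicate block, in depleted (left, red) and control (right, black) libraries, with lines joining libraries of the same replicate number (circle 1, square 2, triangle 3). All lines fall from left to right for the 6 genes that rose and rise for Dhx36 and Ddx60, while the groups overlap for Ddx49, Ddx17, Dhx38 and Dhx36.

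Over 7 alternatives to the fit with the block (DESeq2, other scaling, no filter, no block or a pair left out), the adjusted p ran from 7.52e-09 to 0.388 for Ddx39b, 2.94e-09 to 0.357 for Dhx9, 8.67e-04 to 0.297 for Ddx27 and 0.00791 to 0.491 for Ddx49. It ran from 6.27e-04 to 0.603 for Ddx17, 0.0112 to 0.659 for Dhx38, 0.0168 to 0.715 for Dhx36 and 0.00928 to 0.179 for Ddx60. None of the 8 genes changed direction under these alternatives. That is no independent support, since the alternatives reuse the same libraries and all pairs of each gene already shared a direction.

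The widest change was in the innate RNA sensing group. Its proteins are induced by interferon: Ddx58 (RIG-I) detects viral RNA in the cytoplasm and signals through Mavs, Dhx58 is a related protein that lacks the signalling domains, and Ddx60 is described as a cofactor of such sensing. Ddx60 (chromosome 8, 61928073 to 62037704) had 1, 0 and 0 counts in depleted replicates 1 to 3, against 22, 22 and 17 counts in control replicates 1 to 3. These are levels of 0.0446, 0 and 0 CPM in depleted and 0.837, 1.25 and 0.921 CPM in control libraries, so the gene was near the lower end of what was counted even in controls. In such bulk libraries fewer cells with the RNA and less RNA per cell cannot be told apart. Over each group, 1 count stood against 61, a depleted over control ratio of 0.0173 after scaling, with an exact 95% binomial (Clopper-Pearson) interval of 4.31e-04 to 0.100. The interval pools the libraries of each group, treats estimated counts as reads and leaves out the spread among libraries. It rests on the same counts that let Ddx60 pass the filter, and is no further evidence of a fall.

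The filter kept Ddx60 only because its controls are high, so a kept Ddx60 had to be lower after IAA and its call is no independent evidence of direction. With no filter its adjusted p with the block was 0.0981 in edgeR, and it was not called. With the filter, Ddx60 was called with the block (edgeR adjusted p = 0.0384) and by DESeq2 without it (adjusted p = 0.0126), but not by edgeR without the block (adjusted p = 0.0962) or with the block when a pair was left out (adjusted p 0.0734, 0.128 and 0.179 without pair 1, 2 and 3). The fitted log2 fold changes, -5.52 and -5.47, depend on the prior count and are no measure of size here. Among all 17573 genes, 5 had at least 17 counts in each control and at most 1 in each depleted library, namely Ddx60, Gnat2, Gm31645, Gm37519 and Gm47903, by a mark set after its values were seen. Ddx58 had 67.3, 95.0 and 60.9 CPM in depleted replicates 1 to 3, against 82.3, 97.3 and 71.2 CPM in control replicates 1 to 3, lower in all 3 pairs but with groups that overlapped (log2 fold change -0.17, edgeR adjusted p = 0.235 with the block). Dhx58 had 33 to 53 counts per library, at 2.01, 2.10 and 2.23 CPM in depleted replicates 1 to 3, against 1.56, 2.73 and 2.87 CPM in control replicates 1 to 3, with pairs of both signs.

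Of the 3 nearest tested genes on each side of Ddx60, 3 fell with the block, where 7.9% of all genes tested fell, and the other 3 were not called. Palld, which encodes an actin-binding protein and ends 25.4 kb before Ddx60, had 728, 764 and 802 counts in depleted and 1096, 726 and 1619 counts in control libraries, and fell with the block (log2 fold change -0.43, edgeR adjusted p = 0.0331, and 0.658 without it), although its groups overlapped. Cbr4, a mitochondrial reductase gene 425 kb away, fell in both fits (log2 fold change -2.53, edgeR adjusted p = 5.82e-05 with the block and 0.0300 without it), and beyond it Gm7432 was not called. On the other side the nearest tested gene, Sgo2b, lay 1887 kb away and was not called, Cpe fell with the block (log2 fold change -1.54, edgeR adjusted p = 0.0350, and 0.269 without it) and Msmo1 was not called. All 6 had log2 fold changes below 0, as did 47.7% of all genes tested. Gm7432, Cpe and Msmo1 lay 547, 2555 and 2680 kb from Ddx60, and a shared change of the region was not tested.

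The upstream sequences of 4 genes are given because Ddx39b and Dhx9 kept their calls without any 1 pair and Ddx60 and Dhx36 were the genes that fell. They are the 250 bases before a RefSeq transcript start (GRCm38.p6, the assembly of mm10), 5′ to 3′ on the gene's strand, with motif matches in capitals. For each gene the listed start nearest to the 5′ end of the gene interval was used. It is that end for Ddx39b, but lies 28 bases inside the interval for Dhx9, 46 for Dhx36 and 14 for Ddx60, so those windows reach into the gene by as much.
Ddx39b, chr17:35241496-35241745, + strand: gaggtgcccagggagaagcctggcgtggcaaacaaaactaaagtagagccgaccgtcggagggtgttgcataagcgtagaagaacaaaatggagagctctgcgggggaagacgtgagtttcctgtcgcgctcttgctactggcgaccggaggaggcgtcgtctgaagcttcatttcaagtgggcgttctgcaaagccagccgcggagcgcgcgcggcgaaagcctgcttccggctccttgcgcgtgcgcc
Dhx9, chr1:153487661-153487910, - strand: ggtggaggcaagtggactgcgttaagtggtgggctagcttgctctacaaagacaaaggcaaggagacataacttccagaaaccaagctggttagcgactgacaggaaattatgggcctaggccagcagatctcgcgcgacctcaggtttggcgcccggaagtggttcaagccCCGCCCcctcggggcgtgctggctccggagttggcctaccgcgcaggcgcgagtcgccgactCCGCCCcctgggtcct
Dhx36, chr3:62506989-62507238, - strand: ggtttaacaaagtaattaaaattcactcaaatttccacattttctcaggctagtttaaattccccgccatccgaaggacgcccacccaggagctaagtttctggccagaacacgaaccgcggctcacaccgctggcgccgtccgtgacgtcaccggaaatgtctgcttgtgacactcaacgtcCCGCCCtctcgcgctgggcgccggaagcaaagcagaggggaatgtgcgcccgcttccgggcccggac
Ddx60, chr8:61927837-61928086, + strand: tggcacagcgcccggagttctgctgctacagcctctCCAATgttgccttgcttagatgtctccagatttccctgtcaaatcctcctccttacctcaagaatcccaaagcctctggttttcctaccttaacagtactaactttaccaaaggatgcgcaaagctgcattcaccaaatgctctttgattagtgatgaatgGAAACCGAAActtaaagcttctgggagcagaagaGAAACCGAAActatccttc
The motifs searched, on both strands, were CACGTG (the E-box), GGGCGG (the GC box), CCAAT (the CCAAT box), TATAAA (the TATA box) and GAAA followed by any 2 bases and GAAA (the core of the interferon-stimulated response element, ISRE). In these 4 windows no match overlapped another. Ddx60 held the ISRE core in 2 places, starting 53 and 19 bases before the transcript start used, and CCAAT once. Since that start lies 14 bases inside the Ddx60 interval, the nearer core spans the interval's first base. Dhx9 held the GC box 2 times and Dhx36 held it once, while Ddx39b held none of the 5 motifs.

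Of the 47 helicase genes, 41 had such a window. At least 1 match to the ISRE core was present in 2 of them, Ddx60 and Ddx49, against 3.05% of all 27025 genes with a window and 2.34% of those tested here. Windows with 2 or more matches, a count taken from Ddx60 after its matches were seen, made up 0.196% of all windows and 0.162% of those of tested genes. The GC box was present in 61.0% of helicase windows, 33.0% of all windows and 58.9% of the windows of genes tested here. In the same order of sets, CCAAT was present in 48.8%, 34.5% and 37.3%, the E-box in 9.76%, 6.04% and 8.4%, and TATAAA in 2.44%, 13.0% and 6.5%. A match is a description of letters and not a site shown to be bound.

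The other role groups held no called gene. Ddx28, a helicase of mitochondrial ribosome assembly overlapped by Dus2, had 37.5, 26.2 and 42.0 CPM in depleted replicates 1 to 3, against 37.4, 21.9 and 32.0 CPM in control replicates 1 to 3. It was higher in all 3 pairs, its groups overlapped, and it was not called (edgeR adjusted p = 0.333 with the block). Dhx30, which acts on mitochondrial transcripts and ribosomes, had a log2 fold change of 0.035. Of the germ line genes, Ddx4 (Vasa), a marker of germ cells, had 66 to 175 counts per library and a log2 fold change of -0.046, and Ddx43 had 13.4, 9.95 and 15.1 CPM in depleted replicates 1 to 3, against 12.8, 12.0 and 20.6 CPM in control replicates 1 to 3. Dhx57 had the largest change of the less well known members, with 42.1, 43.0 and 41.0 CPM in depleted replicates 1 to 3, against 50.7, 55.8 and 42.2 CPM in control replicates 1 to 3, lower in all 3 pairs (log2 fold change -0.24, edgeR adjusted p = 0.227 with the block). Dhx32, Dhx40 and Ddx59 had pairs of both signs.

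Shorter helicase genes lay higher than longer ones after IAA. The median log2 fold change without the block was 0.15 for 7 members under 10 kb, 0.13 for 23 members of 10 to 30 kb and -0.11 for 15 members of 30 to 100 kb. In the same classes all genes tested had medians of 0.14, 0.039 and -0.069. The 6 genes that rose spanned 9.6 kb (Ddx49) to 31.9 kb (Dhx9), and Dhx36 and Ddx60, which fell, spanned 39 and 109.6 kb. The other member over 100 kb, Ddx10 at 149.7 kb, had a log2 fold change of -0.12.

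Across the 47 helicase genes, the Spearman correlation (rho) of log2 fold change with length was -0.59, given as a description, since the points share the same 6 libraries and genes are not independent replicates. It was -0.24 over the 15362 tested genes with a length, and the difference between the correlations was not tested. Within pairs 1, 2 and 3, rho over the helicase genes was -0.50, -0.55 and -0.50, against -0.19, -0.13 and -0.25 over all genes. Its size rested in part on control replicate 2, without which it was -0.35, and it was -0.56 without Ddx60. Among the members of 10 to 30 kb, changes still ran from -0.26 for Ddx52 to 0.44 for Ddx39b.

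**Figure D3:**
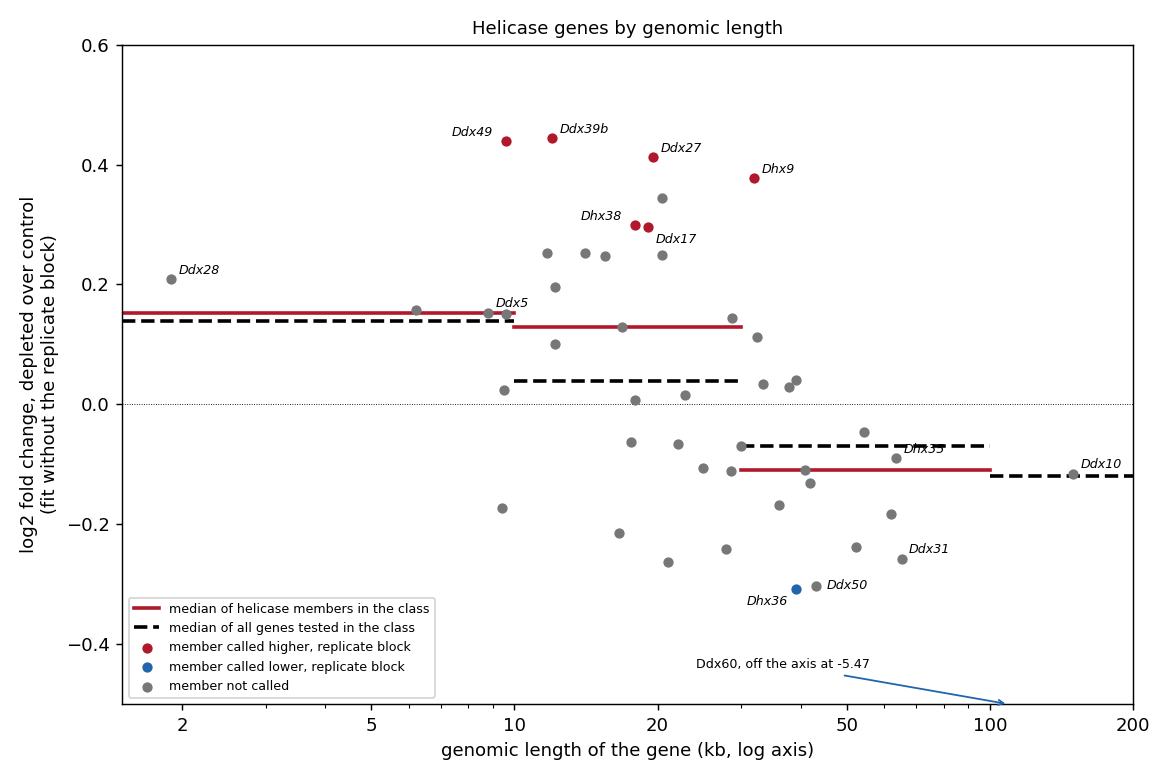
Log2 fold change (depleted over control, fit without the block) of the helicase genes against genomic length on a log axis, with the medians of helicase genes (red) and of all genes tested (dashed) in each length class. Members under 30 kb mostly lie above 0 and those of 30 kb or more mostly below it; Ddx60, at -5.47, is off the axis, and the class of 100 kb or more has no helicase median because it holds 2 members.

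Companion genes were taken from lists of other RNA helicases, G-patch proteins and known partners. Of 32 tested partners, 4 rose and 4 fell with the block (12.5% each way, against 4.96% higher and 7.9% lower among all genes). Gemin4 and Gemin6, which encode subunits of the SMN complex in which the Ddx20 protein works, were among those that fell, as was Gemin7. The complex did not fall as a set. Its genes Smn1, Gemin2, Gemin5 and Gemin8 were not called. With the block their log2 fold changes were 0.23, -0.33, 0.012 and -0.33, and Smn1 was higher in all 3 pairs. Gemin4 (chromosome 11, 76210571 to 76217572) had 54.9, 65.5 and 62.8 CPM in depleted replicates 1 to 3, against 158, 118 and 159.9 CPM in control replicates 1 to 3, a fall of 2.38-fold that passed without the block too (edgeR adjusted p = 0.0300, and 5.82e-05 with it). Gemin6 had 19.1, 22.2 and 26.3 CPM in depleted replicates 1 to 3, against 45.6, 36.3 and 39.9 CPM in control replicates 1 to 3 (edgeR adjusted p = 0.00325 with the block). In both genes every depleted library lay below every control, while Ddx20 overlapped between the groups.

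Mavs, the mitochondrial adaptor through which Ddx58 signals, had 28.9, 26.7 and 42.0 CPM in depleted replicates 1 to 3, against 53.8, 41.5 and 61.4 CPM in control replicates 1 to 3, and fell with the block (log2 fold change -0.69, edgeR adjusted p = 0.00308). Its highest depleted library lay just above its lowest control, and all 3 pairs were lower. Edc4, the decapping scaffold that works with Ddx6, rose with the block and had 303, 234 and 319.9 CPM in depleted replicates 1 to 3, against 244, 156 and 214 CPM in control replicates 1 to 3 (log2 fold change 0.49, edgeR adjusted p = 0.00169). Other than Gemin4, none of these partners passed the fit without the block (edgeR adjusted p 0.105 for Gemin6, 0.291 for Mavs and 0.409 for Edc4). That fit called 1 of the 32 partners lower (3.12%, against 0.78% of all genes) and 0 higher (against 0.0114%). In it 6 partners had an unadjusted edgeR p under 0.05 (18.8%, against 10.9% of all genes), a difference that was not tested.

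Of 23 G-patch genes, whose proteins bind and stimulate DEAH helicases through a glycine-rich motif, 3 rose and 1 fell with the block. These were 13% and 4.35%, against 4.96% higher and 7.9% lower among all genes, a difference that was not tested. Without the block 0 were called, and 2 had an unadjusted edgeR p under 0.05 (8.7%, against 10.9% of all genes). Tfip11, the cofactor of the helicase that takes the spliceosome apart, had 110.0, 94.7 and 101 CPM in depleted replicates 1 to 3, against 91.8, 60.9 and 83.7 CPM in control replicates 1 to 3 (edgeR adjusted p = 0.0238 with the block). Sugp2 had 253, 309 and 309.6 CPM in depleted replicates 1 to 3, against 211, 192 and 236 CPM in control replicates 1 to 3, and Son, a splicing factor of nuclear speckles, had 1176, 1363 and 1083 CPM in depleted replicates 1 to 3, against 994, 1054 and 916 CPM in control replicates 1 to 3. All 3 genes that rose were higher in all 3 pairs, and their groups did not overlap (edgeR adjusted p with the block 0.00537 for Sugp2 and 0.0127 for Son). Cmtr1, an mRNA cap methyltransferase with a G-patch, fell with the block and had 58.9, 60.0 and 68.6 CPM in depleted replicates 1 to 3, against 92.2, 68.4 and 92.0 CPM in control replicates 1 to 3 (edgeR adjusted p = 0.0200).

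Of 13 other helicase genes tested that lack a Ddx or Dhx name, Eif4a1 rose and Tdrd12 fell with the block (7.69% each way, against 4.96% higher and 7.9% lower among all genes). Without the block 0 were called, and 1 had an unadjusted edgeR p under 0.05 (7.69%, against 10.9% of all genes). Eif4a1, the DEAD box helicase of cap-dependent initiation, had 1518, 1339 and 1586 CPM in depleted replicates 1 to 3, against 1365, 1038 and 1391 CPM in control replicates 1 to 3 (log2 fold change 0.24, edgeR adjusted p = 0.0359 with the block). The RNA genes Gm25835, LOC115487878 and LOC115487892 lie within its interval. Tdrd12, a helicase of the piRNA pathway, had 27.6, 41.4 and 28.8 CPM in depleted replicates 1 to 3, against 65.5, 85.6 and 43.9 CPM in control replicates 1 to 3 (log2 fold change -0.97, edgeR adjusted p = 5.58e-04 with the block). Its depleted libraries all lay below the controls. Of these companions, Gemin4, Gemin5, Gemin6, Tdrd12, Sugp2, Son, Tfip11 and Cmtr1 also overlap other annotated genes, and without strand their reads cannot be told apart.

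**Figure D4:**
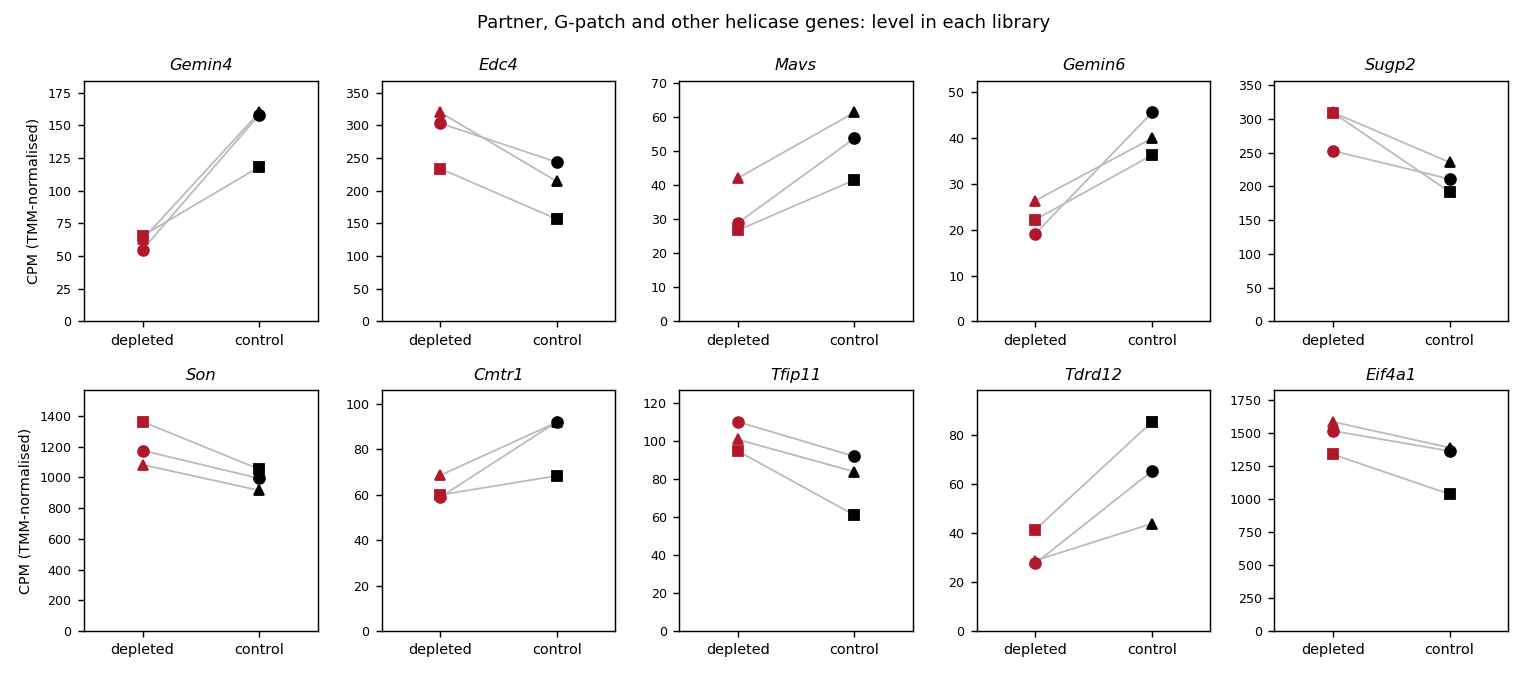
TMM-normalised CPM of the 10 companion genes given by library in the text, in depleted (left, red) and control (right, black) libraries, with lines joining libraries of the same replicate number (circle 1, square 2, triangle 3). Gemin4 shows the widest gap in fold, with 54.9 to 65.5 CPM in depleted and 118 to 160 CPM in control libraries.

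The 6 helicase genes left out by the choice of names were called in neither fit, with log2 fold changes between -0.035 for Ddx3x and 0.23 for Dhx8. Ddx3y, on the Y chromosome, differed far more between replicate numbers than between groups, at 11.9, 19.4 and 76.7 CPM in depleted replicates 1 to 3, against 12.3, 21.5 and 60.6 CPM in control replicates 1 to 3.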

How the data were processed

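4sU-labelled RNA was measured in 6 libraries. The authors deposited 1 table of estimated counts per gene, given as whole numbers and not normalised. The row names have the form that StringTie's export writes. HISAT2 2.2.1, StringTie 2.2.1, DESeq2 1.42.0 and build mm10 are named per the submitters' processing notes, with no role stated; strandedness, pulse length and spike-ins were not given in the sources used here. Without strand, reads of overlapping or antisense genes cannot be told apart.

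Columns were matched to samples by title. In R 4.3.3 with edgeR 4.0.16, filterByExpr kept 17573 genes, libraries were TMM-scaled, and the quasi-likelihood test (robust) compared depleted with control over 6 libraries, without and with the replicate number as a block. Standard errors follow from fold change and F. Deviations from group means correlated at 0.214, 0.317 and 0.267 for same-numbered libraries (1, 2 and 3), and at -0.23 to -0.024 otherwise, so the numbers were taken to pair libraries; over the 47 helicase genes the same-number values were 0.152, 0.715 and 0.594 and the others -0.738 to 0.523, of which 2 lay above that of pair 1. Depth was 14336811 to 25916628 counts. DESeq2 1.42.0, other scaling, no filter and left-out libraries were alternatives. Coordinates, lengths and overlaps came from RefSeq (GRCm38.p6) by symbol.

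Members and lists were chosen with earlier results of these data known. Named with full statistics are members called in either fit. In each role the uncalled member with the largest fold change is given by its value in each library. At most 4 called genes of each companion list are given in the same way, and other genes of the SMN complex are named beside them. Other members are given for their role. The tests were checked on simulated counts, with planted changes larger than those of the called helicase genes other than Ddx60. That check therefore does not cover changes as small as theirs.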

Additional observations from a re-analysis of the deposited data

How the results depend on the processing

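The calls rest on the pairing. Without the replicate block 0 helicase genes were lower and 0 higher, and with it 2 and 6; DESeq2 without the block called 1 lower and 0 higher. With the block, DESeq2 called 11 higher and 2 lower (against 6.47% and 7.97% of all genes), edgeR with DESeq2's size factors 10 and 2 (6.15% and 7.73%), and edgeR with no filter on low counts 3 and 0 among more genes tested (0.989% and 3%). When each pair was left out in turn, which leaves 4 libraries, between 0 and 1 were lower and between 3 and 5 higher with the block, fewest without pair 3 (3 higher and 0 lower), and without pair 2 the lower call was Ddx50; Ddx39b and Dhx9 were called each time. Of all genes, these fits called 3.44, 2.46 and 1.36% higher and 5.9, 5.92 and 3.9% lower without pair 1, 2 and 3. Without any 1 library the fit without the block called 0. The median log2 fold change of the helicase genes lay between 0.023 and 0.062 when single libraries were left out, and rho with gene length between -0.63 and -0.35, lowest in size without control replicate 2. No direction of the 8 called genes reversed under any alternative run, which could hardly happen, since all pairs of each gene shared a direction. The cause of these shifts was not tested. Upper-quartile scaling, the left-out pairs for single genes and the settings for rho were chosen after seeing the data. Scaling changes moved the median of all genes by less than 0.1 (log2), and changes are relative, since a shift of all labelled RNA cannot be seen. Low counts limit Ddx60, Ddx25, Dhx58 and Ddx4.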
